A study of Mus musculus with 5 samples.

Results

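Of the 90337 PABPC1 binding peaks listed for mouse erythroleukemia cells, 439 lay outside annotated genes, which is 0.486% (95% exact binomial interval 0.442 to 0.533%, counting error only). A peak was counted here when its midpoint fell in no gene body of the GENCODE M21 basic annotation (mm10) on its own strand. The remaining 89898 peaks had their midpoint inside a gene. The peaks came from MEL cells, an established mouse erythroleukemia line, in which RNA cross-linked to PABPC1 by ultraviolet light was precipitated with an antibody and sequenced (CLIP-seq). The labels of PABPC1 CLIP-seq replicates 1 to 3 name the same peak list, so the 3 samples were pooled by the authors and no value below has a replicate error. The other 2 samples were mRNA-seq of the same line, and for them there was 1 pooled RPKM value a gene, a read count scaled to gene length and sequencing depth. The groups carry no treatment, and the cells were not compared with another line here.

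PABPC1 is the main cytoplasmic poly(A) binding protein, which coats the poly(A) tail of mRNAs and connects it to translation and decay factors. Many genes can end their mRNA at more than a single cleavage site, and a site beyond the annotated end gives a longer 3' untranslated region than the annotation shows. Processed pseudogenes are copies of mRNAs that were reverse-transcribed into the genome, often with their untranslated regions and a remnant of the tail, and the sequence of a copy can be close to that of its parent gene.

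The label "outside annotated genes" held for GENCODE M21 and much less for a second annotation. RefSeq placed 350 of the 439 peaks (79.7%, interval 75.7 to 83.4%) inside a gene on the same strand, against 88145 of the 89898 in-gene peaks (98.1%). Another 13 lay in RefSeq genes whose strand was not known, and 76 lay in no RefSeq gene of the same or unknown strand. They are therefore called peaks outside GENCODE genes below. The word gencode stands in the peak list's own name, with no release, and the step it refers to is not known. In the authors' separate list of deletion sites, 81 of the 1357 sites outside GENCODE genes (5.97%, interval 4.77 to 7.36%) lay in a listed peak, against 10056 of the 10550 sites inside genes (95.3%, interval 94.9 to 95.7%). The part of the authors' gene set in the share of peaks outside genes was not tested.

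Sequence could be read for a minority of these peaks, from GENCODE M21 transcripts that reach into them or run opposite to them. The first set is shown because the printed bases hold the place where a pseudogene model starts or ends inside a peak. Capitals mark the start codon or stop codon that forms the model's edge. In the last pair they mark a poly(A) signal (AATAAA or ATTAAA) beyond the model and, at Gm12481 only, a run of A. All are written 5' to 3' on the strand of the peak in mm10.
Rpl31-ps8, model end, 763 tags, chr15:90764279-90764334, minus strand: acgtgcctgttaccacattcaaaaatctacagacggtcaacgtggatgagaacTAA
Npm3-ps1, model end, 114 tags, chr6:85076687-85076719, plus strand: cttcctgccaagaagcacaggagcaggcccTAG
Rpl38-ps2, model start, 313 tags, chr6:140747141-140747172, minus strand: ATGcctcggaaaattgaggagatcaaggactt
Gm9843, model start, 295 tags, chr16:76403622-76403652, minus strand: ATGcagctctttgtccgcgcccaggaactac
Gm12481, past the model end, 127 tags, chr4:43664382-43664433, plus strand: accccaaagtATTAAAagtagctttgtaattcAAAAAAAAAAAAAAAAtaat
Gm15459, past the model end, 64 tags, chr5:5781530-5781560, minus strand: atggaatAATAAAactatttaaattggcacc

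The second set is shown because these peaks held, past the GENCODE 3' end of a protein-coding gene, a poly(A) signal, the hexamer that directs cleavage and tail addition. Capitals mark AATAAA, which began 335 nt past the end of Ppp2cb and 1317 and 1242 nt past the end of Crbn.
Ppp2cb, 229 tags, chr8:33619764-33619793, plus strand: gtgtactgaacaAATAAAatttccgattta
Crbn, 50 tags, chr6:106778867-106778896, minus strand: tcttgtactttgAATAAAgaagccaaaaga
Crbn, 26 tags, chr6:106778942-106778971, minus strand: tttttaactataAATAAAcccaggtttttc
In the Ppp2cb window a listed deletion site was base 12, the a just before the capitals.

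AATAAA or ATTAAA was searched on the peak's strand within 50 nt of the midpoint. The whole window was known for 14 of the 439 peaks, and 7 of these held a signal (50%, interval 23.0 to 77.0%). In 4 windows, at Ppp2cb, Gm12481 and Crbn (2 peaks), the signal lay wholly past the annotated end. In 3, at Fbl, Zc3h14 and Nsa2, it began inside the annotated gene, which the window reaches back into. The signal counted at Ppp2cb began 222 nt past the end, and the one printed above, at 335 nt, lay outside the window. Among peaks inside genes with a known window, 10557 of 59562 held one (17.7%, interval 17.42 to 18.03%), and among peaks in 3' UTRs 8201 of 38618 did (21.2%, interval 20.8 to 21.6%). A run of AAAAAA lay in 1 of the 14 windows, against 5523 of the 59562 windows inside genes (9.27%). The 14 peaks are those that other transcripts happen to cover, so the share describes them and not all 439.

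The peaks outside GENCODE genes were somewhat taller and narrower than those inside. Peak height, the authors' score read as tags, had a median of 12 tags (interval 11 to 16 tags) and quartiles of 7 and 39 tags, against a median of 9 tags and quartiles of 5 and 23 tags for peaks inside genes. At least 74 tags were reached by 59 of 439 peaks outside genes (13.4%, interval 10.4 to 17.0%), against 9073 of 89898 inside (10.1%, interval 9.90 to 10.3%). Median width was 52 nt outside genes and 66 nt inside. Peaks in annotated 3' UTRs had a median height of 13 tags and a median width of 86 nt, and peaks in processed pseudogenes 10 tags and 48 nt. The heights of the 439 peaks summed to 17973 tags, 0.526% of the list's total.

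Most of the 439 listed peaks had their midpoint within 5 kb past the 3' end of a gene. Whether the authors' gene set limits how far the listed peaks lie from genes was not tested. The median distance from the midpoint to the end of the nearest gene upstream on the strand was 281 nt (interval 204 to 395 nt), with quartiles of 21.5 and 1299 nt. Within 100 nt of an upstream gene end were 166 peaks (37.8%), within 1 kb 308 (70.2%), and within 5 kb 380 (86.6%, interval 83.0 to 89.6%). The start of a downstream gene lay within 100 nt of 38 peaks (8.66%) and within 5 kb of 89 (20.3%). By the nearer of both edges, 370 peaks were past a 3' end within 5 kb, 46 were before a 5' start, and 23 were farther from either, called distal below. Of the 370 peaks, 121 overlapped the gene, so that part of the peak lay inside it. Of the 278 upstream genes within 5 kb, 153 also held a peak in their annotated exons (55.0%, interval 49.0 to 61.0%).

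**Figure D1:**
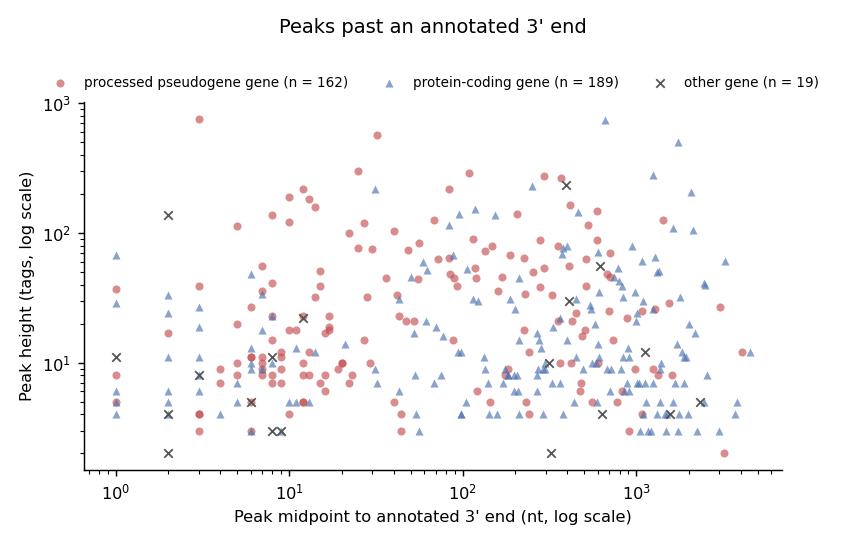
Height (tags, log scale) of the 370 peaks past an annotated 3' end against the distance from their midpoint to that end (nt, log scale), with 1 point a peak, circles for processed pseudogenes, triangles for protein-coding genes and crosses for other genes. Circles crowd at short distances, with a median of 44 nt, and triangles have a median of 299 nt and hold the tall Ano6 and Cmip peaks beyond 600 nt.

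Protein-coding genes and processed pseudogenes supplied nearly all of the past-end peaks and differed in shape. The 189 peaks past protein-coding ends had a median height of 11 tags, a median width of 65 nt and a median distance of 299 nt. The 162 peaks past pseudogene ends had a median height of 21 tags, a median width of 47 nt and a median distance of 44 nt. Their heights summed to 8455 tags, against 6195 tags past protein-coding ends. A further 10 peaks followed lncRNA genes, 4 small RNA genes and 5 other genes. Before 5' starts the split was 32 beside pseudogenes, 9 beside protein-coding genes, 3 beside lncRNAs and 2 beside small RNAs.

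**Figure D2:**
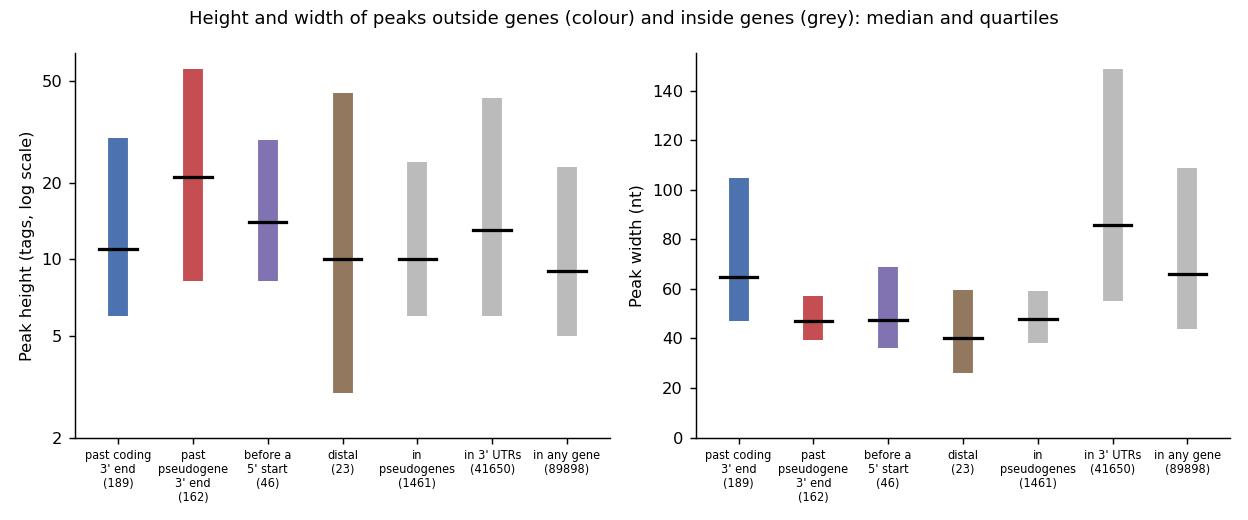
Height (tags, log scale, left) and width (nt, right) of peaks outside genes by their place (coloured) and of peaks inside genes (grey), with bars from the first to the third quartile, a black line at the median and the number of peaks in brackets. Peaks past pseudogene ends have the highest median height of the 7 groups drawn, 21 tags, and peaks in 3' UTRs the highest median width, 86 nt.

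In protein-coding genes the peaks past the end belonged to 101 genes, of which 71 had 1 such peak, 11 had 2 and 19 had 3 or more. The median RPKM of these genes was 20.8, against 6.62 over all listed genes. Of the 100 with a listed value, 96 had an RPKM of at least 1. The same share over all genes with a peak is not given here, so the count is not a trait particular to these genes. RefSeq extended the gene of the same symbol over 168 of the 189 peaks. Ano6, which encodes a calcium-activated phospholipid scramblase, had the tallest coding peak, 745 tags at chr15:95975344-95975470, with its midpoint 656 nt past the GENCODE end, whereas its tallest exonic peak reached 116 tags. Cmip, named as a c-Maf-inducing protein, had 503 tags at chr8:117460831-117461500, 1735 nt past the end, against 23 tags in its exons. Dpp9, a dipeptidyl peptidase, had 219 tags with the midpoint 31 nt past the end, against 15 tags in its exons. The Dpp9 peak crossed the GENCODE end, and 41 of the 189 peaks overlapped their gene in this way.

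Over the 92 of these genes that also had an exonic peak, the tallest peak past the end was above the tallest exonic peak in 26. Its ratio to the tallest exonic peak had a median of 0.339, and in 27 genes it was at most 0.1 of it. Peaks were placed by midpoint, so those that cross the annotated end, as at Dpp9, can count as past it. Adamts3, a procollagen-processing metalloprotease, had 105 tags past the end and 5 in exons. Strn3, a striatin of the PP2A phosphatase complexes, had 137 tags past the end and 15 in exons. Ppp2cb, a catalytic subunit of PP2A, had 229 tags past the end and 144 in exons. The order was the other way for Arf6, a GTPase of endosomal recycling, with 207 tags past the end and 517 in exons. It was also the other way for Arhgdib, an inhibitor of small GTPases in blood cells, with 139 tags past the end and 1053 in exons.

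**Figure D3:**
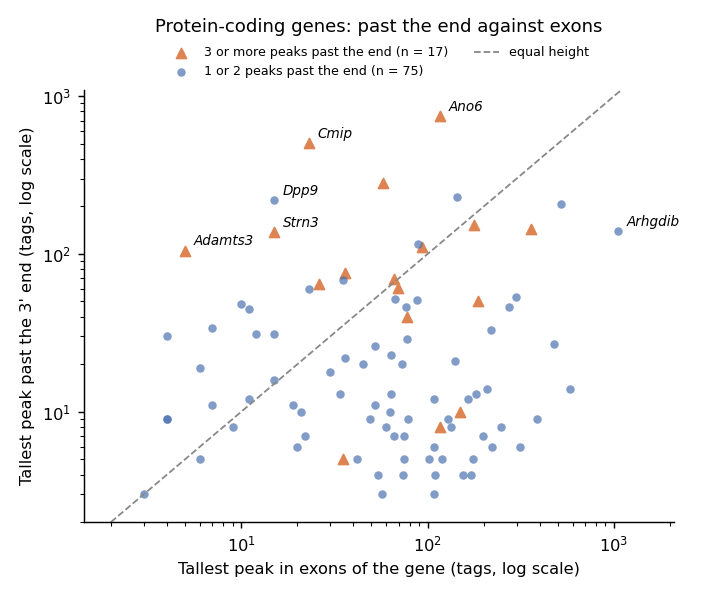
Tallest peak past the 3' end (tags, vertical, log scale) against the tallest peak in exons (tags, horizontal, log scale) for the 92 protein-coding genes with both, with 1 point a gene, triangles for genes with 3 or more peaks past the end and a dashed line of equal height. Genes above the line, 26 of 92, include Cmip, Ano6, Dpp9, Adamts3 and Strn3, and Arhgdib lies far below it.

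Many of these peaks came in runs. Neighbours were often close, and 97 of the 189 peaks past protein-coding ends lay within 100 nt of the listed peak before them. Whether such neighbours are parts of the same stretch of coverage was not tested. The intervals count each listed peak as separate. There were 22 runs of 3 or more peaks within 10 kb of 1 upstream gene end, with 108 peaks in all, and 21 of them followed protein-coding genes. Of the 108 peaks, 102 were nearest to that upstream end, 5 were nearer to the start of the next gene, Edc4 or Igip, and 1 was distal. Cmip had 11 peaks in a run. At 2, 183, 333, 537, 674, 822, 995, 1092, 1252, 1372 and 1735 nt past the end they held 24, 8, 19, 28, 9, 39, 21, 4, 7, 9 and 503 tags. The last of these was the tallest by far. Ano6 had 4, 5, 10 and 745 tags at 291, 440, 555 and 656 nt, again with the tallest last. Adamts3 had 15, 10, 4, 11, 7, 3 and 105 tags between 210 and 2114 nt, also with the tallest last.

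In 10 of the 22 runs the tallest peak was the farthest from the gene. Strn3 had the other order, with 137, 7, 71, 43 and 80 tags at 154, 364, 599, 793 and 949 nt. Pdzd8, a tether between the endoplasmic reticulum and other organelles, had 68, 9, 144, 32 and 61 tags at 88, 290, 460, 834 and 1078 nt. Crbn, the substrate receptor of a ubiquitin ligase, had 11, 6, 26, 50, 12 and 11 tags at 450, 706, 1239, 1314, 1838 and 1920 nt, and the 26 and 50 tag peaks are those whose AATAAA is printed above. The only run not past a coding gene followed the pseudogene Gm11847, with heights of 8 to 27 tags. Runs of 6 followed Pcm1, a centriolar satellite protein, with up to 110 tags, and Nutf2, the import factor of Ran, with up to 80 tags, where 2 of the 6 were nearer to Edc4. Runs of 5 followed Pde4d, a cAMP phosphodiesterase, with up to 65 tags, and Atxn7l1, with up to 40 tags. Runs of 4 followed Ankrd11, Pphln1 and Slf2, with up to 76, 69 and 152 tags, and runs of 3 followed Atg2b, Btrc, Cdk7, Syne1 and Vps26b, with up to 8, 5, 12, 35 and 61 tags.

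**Figure D4:**
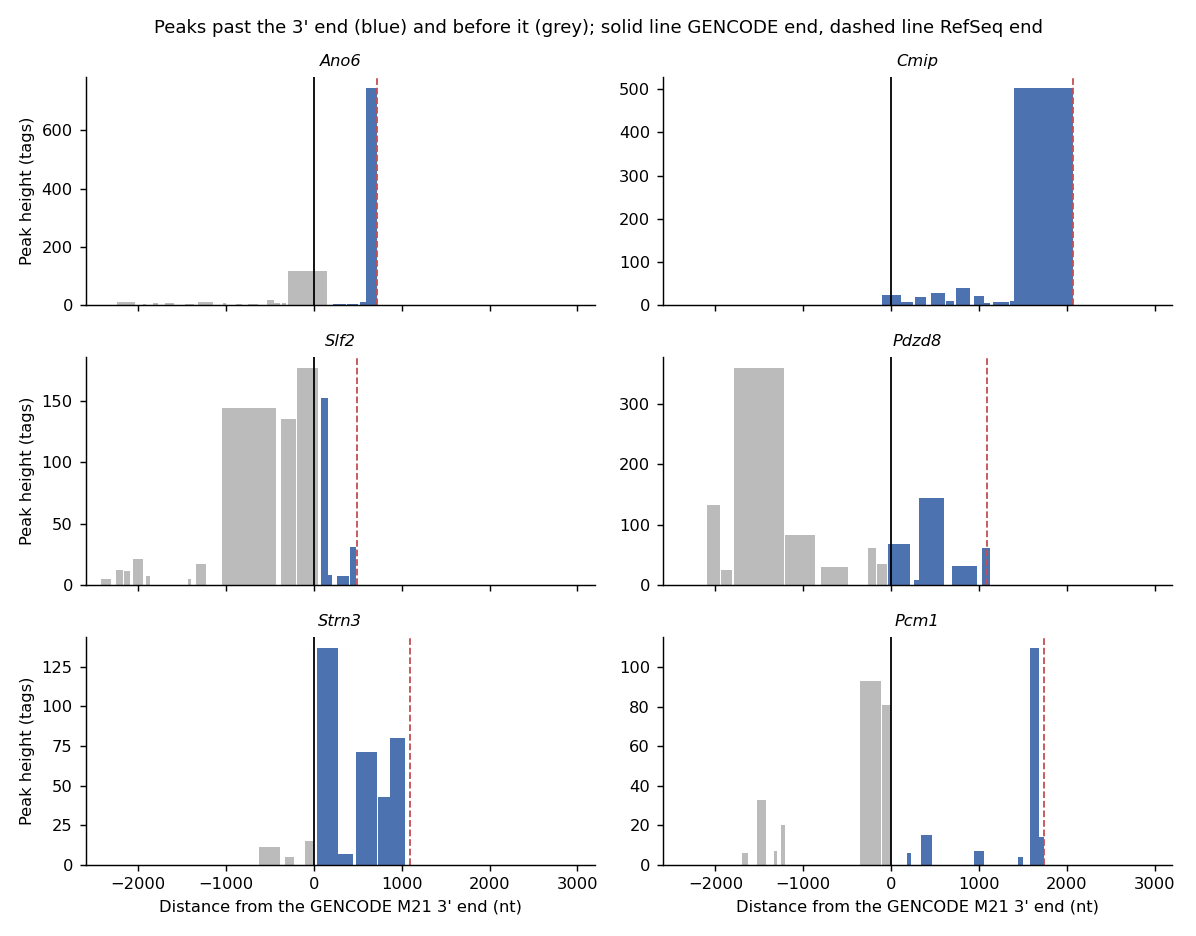
Peaks around the annotated 3' end of 6 protein-coding genes, those with the tallest peak in a run (chromosome 18 left aside), with peak height (tags) against distance from the GENCODE M21 end (nt) and each bar as wide as its peak. Blue bars have their midpoint past the end and grey bars inside the gene, the solid line is the GENCODE end and the dashed line the RefSeq end: the Ano6 and Cmip bars of 745 and 503 tags end at the dashed line, and the tallest blue bars of Slf2, Pdzd8 and Strn3 do not.

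The tallest past-end peak of a coding gene often ended close to the RefSeq 3' end. Each peak counted here had its midpoint between the GENCODE and RefSeq ends, so a short RefSeq extension forces a small distance. That extension was 6 nt at Cit, 14 nt at Tulp2 and 17 nt at Tcof1, and 3246 nt at Adamts3. Genes with several such peaks need room for them, so their other peaks lie farther away partly by construction. The distances were not scaled to the extension. For the 168 peaks inside the RefSeq gene of the same symbol, the distance from the peak's 3' edge to that gene's 3' end had a median of 370 nt. For the tallest peak of each of 80 genes the median was 15 nt, and 39 of the 80 (48.8%) lay within 20 nt of the end. For the other 88 peaks of these genes the median was 692.5 nt, and 5 (5.68%) lay within 20 nt. Ano6 ended 2 nt before the RefSeq end, Cmip 6 nt before it and Arf6 at it, whereas Ppp2cb and Dpp9 ran 18 and 10 nt beyond it. Pdzd8, Strn3 and Adamts3 ended 491, 815 and 1019 nt before it. Of the 80 genes, 50 had 1 such peak and so no other. In the 30 genes with 2 or more, the tallest peak had a median of 75.5 nt and 14 of 30 (46.7%) lay within 20 nt. In the 19 genes with 3 or more, the median was 330 nt, and 7 lay within 20 nt. Past pseudogene ends, 68 of 125 peaks in the RefSeq gene of the same symbol (54.4%) lay within 20 nt of its end. The same limit from short extensions holds there.

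**Figure D5:**
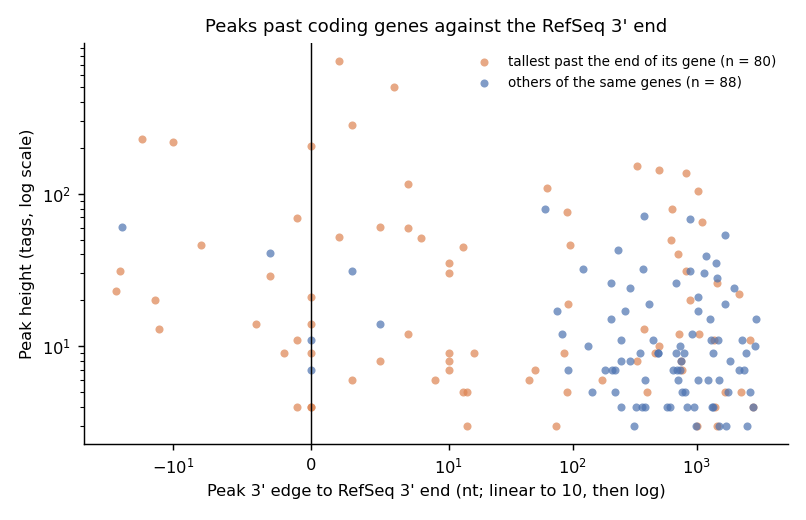
Height (tags, log scale) of the 168 peaks past coding genes that lie in the RefSeq gene of the same symbol, against the distance from the peak's 3' edge to the RefSeq 3' end (nt, linear to 10 and then log, positive before the end), with 1 point a peak. The tallest peak of each gene (orange, 80) has a median of 15 nt over all genes and 75.5 nt over the 30 genes with 2 or more, whose other peaks (blue, 88) have a median of 692.5 nt. The length of each gene's RefSeq extension bounds the distance.

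Processed pseudogenes had 194 peaks beside them, 162 past the 3' end and 32 before the 5' start, at 177 pseudogenes. Of the 194 peaks, 113 had their midpoint within 50 nt of the model and 93 overlapped it. At 114 of the 177 pseudogenes no peak had its midpoint inside the model. Of the models, 129 began with ATG (72.9%) and 114 ended with a stop codon (64.4%), against 38.5% and 32.3% of all 10236 processed pseudogene models. Since copies and parents can be nearly identical, tags and RPKM of pseudogenes may be split with their parents by the authors' mapping, and each value here is uncertain for that reason.

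Rpl31-ps8, a copy of a large-subunit ribosomal protein mRNA, had the tallest peak of the 439, 763 tags at chr15:90764219-90764334, which crosses the TAA printed above. No peak had its midpoint inside its model, and its parent Rpl31 reached 177 tags in exons. Gm9843 had a peak on both sides, 573 tags past the end and 295 tags before the start, beside 380 tags inside. Rpl38-ps2 likewise had 77 tags past the end and 313 tags before the start, while exons of Rpl38 reached 125 tags. Both Rpl38-ps2 peaks overlapped the model, and no peak had its midpoint inside it. Rpl10a-ps1 had 302 tags past the end, against 151 tags inside the model and 26 tags in exons of Rpl10a. The listed RPKM of these copies was also above that of the parent. It was 424 for Rpl31-ps8 and 26.8 for Rpl31, 2785 for Rpl38-ps2 and 315 for Rpl38, and 3713 for Rpl10a-ps1 and 90.9 for Rpl10a. The order was the other way elsewhere, as for Rpl13a-ps1 with 82.3 and Rpl13a with 374. How reads were shared between copy and parent was not tested. Peaks stood on both sides of 9 pseudogenes in all.

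By symbol, 34 of the 439 peaks lay beside cytosolic ribosomal protein genes, at 33 genes, with heights of 3 to 763 tags. Apart from Rpl36a, with 10 tags, these were pseudogenes. The share of such symbols among all 10236 processed pseudogene models was not counted. Whether the peaks favoured ribosomal protein copies was therefore not tested. A parent gene could be found by symbol for 47 pseudogenes. The tallest peak beside the pseudogene had a median of 18 tags, against a median of 148 tags for the tallest exonic peak of the parent, and it was the taller in 15 of the 47. Gm12338, Gm11223, Gm8203, Gm11814, Gm8292 and Eif5al3-ps had 292, 274, 265, 219, 217 and 191 tags past their ends, at 109, 294, 366, 12, 83 and 10 nt. Of these, Gm8203 and Eif5al3-ps also had peaks inside their models, of 14 and 360 tags.

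The tallest peaks away from any GENCODE gene fell in RefSeq genes. Peaks of 395, 241, 103 and 95 tags lay in D17H6S56E-5 on chromosome 17, the tallest at chr17:34996976-34997417, and the nearest upstream GENCODE gene, Sapcd1, ended at least 25251 nt away. The mRNA-seq table lists D17H6S56E-5 at 274 RPKM under an identifier that GENCODE M21 does not hold. The table has 290 such identifiers, and for 19 of the 439 peaks the RefSeq gene has one. Peaks of 236 tags 395 nt past Snora43 and of 131 tags 822 nt before Snora17 both lay in Snhg7, the host of these small nucleolar RNAs, which the table lists at 30.6 RPKM. Of the 23 distal peaks, 9 lay in a RefSeq gene and 13 in none. Those 13 had a median of 3 tags and at most 68 tags.

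A gene on the other strand covered the midpoint of 109 of the 439 peaks (24.8%, interval 20.9 to 29.1%), against 8190 of the 89898 peaks inside genes (9.11%, interval 8.92 to 9.30%). In processed pseudogenes the share was 19.4% (interval 17.4 to 21.6%), and in 3' UTRs 10.9%. The antisense gene's introns held 95 of these midpoints and its exons 14. An antisense exon lay under 3.19% of peaks outside genes (interval 1.75 to 5.29%), against 2.40% of peaks inside (interval 2.30 to 2.50%) and 3.40% of peaks in 3' UTRs. The antisense gene was protein-coding for 68 peaks. Median height was 12 tags with an antisense gene and 12.5 tags without. The tallest of the 109 were the Ano6 peak over Gm49172, Rpl38-ps2 over Gm11077, Gm12338 over Pitpna, Ammecr1l over Gm26533, and Gm8203 over Tmcc1.

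Of the 14 peaks over antisense exons, 10 lay past a coding 3' end. Ppp2cb, with 229 tags, lay over an exon of Ubxn8, and the RPKM were 85.3 for Ppp2cb and 8.95 for Ubxn8. The Crbn peaks of 50 and 26 tags lay over Trnt1, and there the RPKM were 11.02 for Crbn and 78.1 for Trnt1. Elp4, with 4 tags, lay over Pax6 3692 nt past its end, and Vps26b, with 5 tags, over Thyn1. The distal peak of 68 tags at chr8:8690015-8690037 lay over an exon of Arglu1, which had 108 RPKM, with no gene of either set on its own strand. Since peaks carry a strand in the list, antisense tags were separated as far as the authors' strand assignment allows.

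Deletions in the tags, which arise where reverse transcriptase skips a cross-linked base, were listed in 34 of the 439 peaks (7.74%, interval 5.42 to 10.7%), against 5147 of the 89898 peaks inside genes (5.73%, interval 5.57 to 5.88%). The share was 10.0% of peaks in 3' UTRs (interval 9.73 to 10.3%) and 3.63% of peaks in processed pseudogenes (interval 2.73 to 4.72%), and the peaks outside genes lay between these classes. Peaks with a site were tall, with a median of 115 tags against 11 tags without. Among peaks of at least 74 tags, 22 of 59 outside genes held a site (37.3%), against 43.6% of those inside genes and 47.2% of those in 3' UTRs. Deletions were summed over the listed sites of a peak. A tag deleted at several sites is counted at each of them, and peaks with more sites can rank higher. Ano6 had the highest sum, 355 at 2 sites, of which the strongest took 178 of 722 tags. Rps15a-ps5 had a sum of 215 at 3 sites, above its peak height of 184 tags. D17H6S56E-5 had 150 at 3 sites in its tallest peak. Cmip had 141 deletions over 6 sites, and Arhgdib 58 over 2.

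The share of tags deleted at a peak's strongest site ranged from 3.24% to 94.7%, with a median of 19.4% over the 34 peaks. Taken in the same way, the median was 14.5% over 5147 peaks inside genes and 18.8% over 53 peaks in processed pseudogenes. It had a median of 25.7% in 22 peaks beside pseudogenes and 11.9% in 9 peaks beside protein-coding genes. The share passed 40% in 7 of the 34 peaks (20.6%, interval 8.70 to 37.9%), against 13.6% of peaks with a site inside genes and 26.4% of those in processed pseudogenes (interval 15.3 to 40.3%). All 7 lay past pseudogene ends. They were Gm16585 with 18 of 19 tags, Gm7353 with 6 of 7, Pgk1-rs7 with 48 of 56, Rps15a-ps5 with 73 of 96, Gm14176 with 29 of 63, Gm13624 with 13 of 29 and Gm14016 with 17 of 38. At Gm16585 the tags covering the site outnumbered the peak's height of 12, so the lists do not count tags in the same way at every site. Whether a copy's sequence difference from its parent is read as a deletion was not tested.

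Erythroid markers were present in the mRNA-seq, with Gata1 at 211 RPKM, Klf1 at 428 RPKM, Epor at 225 RPKM and Tfrc at 103 RPKM. Of the other blood cell markers, Itgam was at 0.0267 RPKM, Cd3e was not listed, and Ptprc and Itga2b were at 11.8 and 103 RPKM. Of the fibroblast markers, Col1a1 was at 0.873 RPKM, Pdgfrb at 2.60 RPKM and Thy1 at 65.3 RPKM, and Col1a2 was not listed. No globin gene was nearest to any of the 439 peaks. The whole peak list holds no peak on the mitochondrial genome, so none could be nearest to a mitochondrially encoded gene. Replication-dependent histone mRNAs, which end in a stem-loop in place of a tail, had 3 peaks with midpoints past their ends. These held 68 tags at Hist1h3i, 18 at Hist1h2ah and 13 at Hist1h2ai. The Hist1h3i peak crossed the annotated end, with its midpoint 1 nt past it.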

How the data were processed

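CLIP-seq peaks and deletion sites of 3 pooled PABPC1 samples and 1 pooled RPKM table of 2 mRNA-seq samples were used as deposited. The peak height and the deletion and tag numbers are whole-number counts deposited by the authors, and RPKM was computed by the authors, per the labels (the files have no header that says more). The height field carries no name and was read as tags. Per the submitters' processing notes, the build was mm10 and the tools were Novoalign 3.02.02, cutadapt 1.4.2, HTSeq 0.6.0 and TopHat2 2.0.12. The peak caller, its threshold and the depth per sample are not given in the sources used here.

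Midpoints were placed on 55450 GENCODE M21 basic gene bodies by strand, and on RefSeq genes (GRCm38.p6) with a known strand, with Python 3.11.15, pandas 2.3.3, numpy 2.4.6 and SciPy 1.17.1. The placement was tested on simulated data. RPKM was matched by identifier, or by unique symbol for 133 genes. Sequences came from GENCODE M21 transcripts of either strand and, for pieces at gene starts, RefSeq promoters. Intervals are exact binomial or, for medians, from order statistics, and cover counting error only. With 1 pooled list no test was made. Named were the 20 tallest peaks, the 10 tallest within 5 kb past a gene end, the 5 tallest beyond it without an antisense gene, the 5 tallest over one, the 10 with most deletions, runs of 3 or more, and their genes. Other names (the genes of printed sequences, of antisense exons, of high deletion shares and histones) were added after their values were seen. The members and lists were chosen with earlier results of these data known. Some planned marker genes and 1 gene beside a peak are not reported here.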

Additional observations from a re-analysis of the deposited data

How the results depend on the processing

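Of 59 values recomputed under other settings, 33 stayed inside the interval of the value reported and 26 did not. Peaks outside genes were 0.630% of peaks of at least 9 tags, 0.711% of those of at least 20 tags, 0.320% where the whole peak had to be outside, 0.365% with no gene on either strand, 0.145% with gene ends extended by 1 kb and 0.0985% with RefSeq genes also removed, the last a setting chosen after seeing the data. Their median height was 27 and 49 tags at minimums of 9 and 20 tags, which the minimums set. Median distance was 581 nt for whole peaks, 3241 nt with extended ends and 665 nt to genes of at least 1 RPKM. The share within the distance limit was 55.0% with extended ends, 74.2% without RefSeq genes, 70.2% at a limit of 1 kb and 70.8% for genes of at least 1 RPKM. The antisense share was 31.5% without RefSeq genes and 3.19% for exons alone. The share with a deletion site was 11.4% and 17.4% at minimums of 9 and 20 tags and 5.34% with extended ends. The share of upstream genes with an exonic peak was 62.2% and 64.6% at minimums of 9 and 20 tags, 62.7% for whole peaks, 67.5% with extended ends, 44.4% without RefSeq genes and 67.9% for genes of at least 1 RPKM. The share with a poly(A) signal stayed within its interval, which 14 peaks leave wide. Extending ends and removing RefSeq genes take out peaks close to genes by construction. For the other changes the cause was not tested. No paired analysis was possible because the replicates were pooled in each list. Height depends on expression and mapping as well as on binding, and low peaks of 2 to 9 tags rest on few tags.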

Other observations

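The 76 peaks in no RefSeq gene of the same or unknown strand were of several kinds. Of these, 26 lay past pseudogene ends, with a median of 18 tags and up to 217 tags at Gm8292, and 17 past protein-coding ends, with a median of 10 tags and up to 139 tags at Arhgdib. Fbl, which encodes the nucleolar methyltransferase fibrillarin, had 48 tags with the midpoint 6 nt past its end, against 10 tags in exons. Cks2, a subunit of cyclin-dependent kinases, had 34 tags with the midpoint 7 nt past its end, against 7 tags in exons. Both the Fbl and the Cks2 peak crossed the annotated end and so lay partly in the last exon. Gm10231 and Gm10232, on chromosome 17, had 79 and 54 tags at 148 and 117 nt past their ends.

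By chromosome, the share of peaks outside genes was highest on Y, 1.72%, which rests on 1 of 58 peaks. Among the other chromosomes it was highest on chromosome 18, 1.32% (35 of 2644 peaks), and then chromosome 8, 1.01% (45 of 4444). It was lowest on chromosome 11, 0.144% (11 of 7643). The runs on these chromosomes were 8 peaks past Ammecr1l (up to 281 tags, antisense gene Gm26533), 6 past Pias2, a SUMO ligase (up to 10 tags), and 4 between Pura and Igip on chromosome 18, and 11 past Cmip, 6 past Nutf2, 6 past Pcm1 and 4 past Ankrd11 on chromosome 8. Of the 4 between Pura and Igip, the peak of 13 tags lay 899 nt past Pura, and those of 24, 19 and 16 tags lay 2066, 650 and 38 nt before Igip.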
